A study of Homo sapiens with 2 samples.

Results

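Interferon regulatory factors (IRFs) and STAT2 are the transcription factors through which cells switch on interferon genes and answer interferon. The 8 genes described here are IRF1, IRF2, IRF3, IRF4, IRF7, IRF8, IRF9 and STAT2, of 20033 protein-coding genes of GENCODE release 44 (hg38). They were chosen by name, not by their values, but with earlier results of these data known. Peaks were taken over each gene body with 20 kb either side. The 6 genes IRF1, IRF2, IRF3, IRF7, IRF9 and STAT2 act in most cell types and are called broadly active. The other 2, IRF4 and IRF8, are known for their roles in lymphoid and myeloid cells and are called lymphoid for short.

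The chromatin was that of CAMA-1, a cell line from a human breast carcinoma that GEO's labels describe as epithelial. Accessibility was measured by ATAC-seq, which uses a transposase (Tn5) to cut DNA and attach adapters where it is free of nucleosomes, in 2 biological replicates of 50000 cells each. Both replicates are 1 condition, with no treatment given in the labels, so no groups of samples could be tested against each other. Peaks numbered 245736 in replicate 1 and 259745 in replicate 2, with median fold enrichments over the peak caller's background of 8.28 and 7.96.

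IRF3 and IRF7 are kept inactive until sensors of foreign nucleic acid trigger the kinases that phosphorylate them, and they then switch on the genes of type I and III interferons. Interferon at the cell surface activates JAK kinases, and STAT2 and IRF9 then act together in the complex ISGF3, which binds the interferon-stimulated response element (ISRE). IRF1 and IRF2 bind similar elements, IRF1 as an activator and IRF2 mostly as its antagonist. IRF4 and IRF8 bind DNA weakly alone and pair with ETS factors such as PU.1, or with BATF and JUN proteins, at composite elements in B cells, plasma cells, dendritic cells and macrophages.

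The labelled cell type was checked at marker genes. A TSS peak, meaning a peak within 1 kb of any annotated transcription start site (TSS) of a gene, was called in both replicates for 8 of 8 luminal epithelial markers (KRT8, KRT18, KRT19, EPCAM, CDH1, ESR1, GATA3 and FOXA1), where the same rule called 79.3% of all protein-coding genes. Of 9 lymphoid markers, 4 had one, among them CD3D (fold enrichment 13.8 and 16.4 in replicates 1 and 2), PAX5 (5.29 and 5.09) and CD79B (4.37 and 5.09). The other 5, CD3E, CD79A, IKZF1, MS4A1 and PTPRC, had none in either replicate.

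The RefSeq promoter table (GRCh38.p14) had entries for 5 of the 8 members, namely IRF1, IRF4, IRF8, IRF9 and STAT2. Those of IRF1, STAT2 and IRF4 are shown 5′ to 3′ on the strand of the gene, for 246, 154 and 237 bases that lie in no annotated exon. Those of IRF1 are in an intron of its longer transcripts, which start farther upstream. IRF1 and STAT2 had the strongest TSS peaks of the 8 genes, while IRF4 had none. Capitals mark a match to TTCNNNGAA, the gamma-activated site (GAS) bound by STAT dimers.
IRF1 promoter, chr5:132490778-132491023, reverse strand: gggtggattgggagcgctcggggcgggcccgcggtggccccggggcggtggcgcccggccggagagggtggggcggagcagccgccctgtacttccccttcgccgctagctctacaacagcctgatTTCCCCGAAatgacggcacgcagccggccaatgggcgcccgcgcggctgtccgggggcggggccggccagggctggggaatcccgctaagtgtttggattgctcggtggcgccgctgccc
STAT2 promoter, chr12:56360204-56360357, reverse strand: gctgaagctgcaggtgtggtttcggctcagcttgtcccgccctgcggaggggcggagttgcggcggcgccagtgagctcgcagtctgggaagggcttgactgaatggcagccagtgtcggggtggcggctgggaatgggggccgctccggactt
IRF4 promoter, chr6:391502-391738, forward strand: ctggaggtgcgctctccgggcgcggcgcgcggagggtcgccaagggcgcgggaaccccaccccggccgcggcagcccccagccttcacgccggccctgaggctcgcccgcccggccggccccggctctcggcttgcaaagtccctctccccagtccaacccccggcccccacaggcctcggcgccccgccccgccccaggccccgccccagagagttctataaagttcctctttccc
The RefSeq window of IRF9 lies in an exon of the readthrough gene ENSG00000259529, so only 30 bases around its GAS match are shown.
IRF9 site, chr14:24161192-24161221, forward strand: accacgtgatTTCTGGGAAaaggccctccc
The 300-base RefSeq windows (250 bases before and 50 after the start) of IRF1, STAT2 and IRF9 lay under a peak over all 300 bases in both replicates. In the windows of IRF4 and IRF8, 0 bases lay under a peak. The 2 RefSeq windows of IRF8 are at starts downstream of the canonical one.

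All 6 broadly active genes had a TSS peak in both replicates, and IRF4 and IRF8 had none in either. This share of members, 6 of 8, is to be read against that background of 79.3%, to which it is close. Peak strength is given as fold enrichment and as height, the number of reads stacked at the highest base of the peak, with an exact 95% Poisson interval that covers counting error only. In a bulk library, fewer cells with an open site and less accessibility per cell cannot be told apart.

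STAT2 (ENSG00000170581.15, chr12:56341597-56360203, reverse strand), the transactivating subunit of ISGF3, had the highest TSS peak of the 8 genes in replicate 1, with 729 stacked reads (677 to 784), 168-fold over background. In replicate 2 the height was 640 (591 to 692) and the fold enrichment 142. Its peak spanned about the same bases in both replicates, from 56359812 to 56360933 and from 56359802 to 56360938, and covered the canonical TSS. STAT2 was the only member lower in replicate 2, with a ratio of replicate 2 to replicate 1 of 0.844. The 5th to 95th percentile of that ratio over genes called in both replicates was 0.833 to 1.26.

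IRF9 (ENSG00000213928.10, chr14:24161234-24168043, forward strand), the DNA-binding subunit of ISGF3, had the weakest TSS peak of the 6, with heights of 191 (165 to 220) and 202 (175 to 232). The fold enrichments were 44.2 and 44.9, with a width of 1101 bp in replicate 1 and 754 bp in replicate 2. The partners in ISGF3 thus stood far apart, at 155 ± 18.5 (SD, n = 2) for STAT2 and 44.5 ± 0.503 for IRF9. The IRF9 peak also lay within 1 kb of an annotated TSS of RNF31, so it need not belong to IRF9 alone.

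IRF1 (ENSG00000125347.15, chr5:132440440-132508719, reverse strand), an activator induced by interferon gamma, had TSS peaks of 606 (559 to 656) and 667 (617 to 720) stacked reads. Their fold enrichments were 140 and 148 and their widths 1668 and 1735 bp. Those values interleave with the ones of STAT2, so the order of the strongest members was not resolved by these replicates. The peak of IRF1 held its GAS match, which begins 124 bp before the RefSeq start.

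IRF2 (ENSG00000168310.12, chr4:184385702-184474558, reverse strand), the repressing counterpart of IRF1, had TSS peaks of 257 (227 to 290) and 295 (262 to 331) stacked reads, with fold enrichments of 59.4 and 65.5. Its peak was the broadest of the members in replicate 1, at 3298 bp, and measured 3238 bp in replicate 2. In both replicates IRF1 was more than 2 times as enriched as IRF2 at its TSS.

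IRF3 (ENSG00000126456.16, chr19:49659569-49665875, reverse strand), the factor present before infection that starts the interferon response, had TSS peaks of 320 (286 to 357) and 395 (357 to 436) stacked reads and fold enrichments of 73.9 and 87.6. This strongest peak, from 49664014 to 49665103 in replicate 1, lay inside the gene. The peak over the canonical TSS was weaker, with heights of 191 and 196 and fold enrichments of 44.2 and 43.6. The TSS of the divergent gene BCL2L12 lies 76 bp from that of IRF3, so neither peak belongs to IRF3 alone.

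IRF7 (ENSG00000185507.21, chr11:612553-615983, reverse strand), the interferon-inducible amplifier of the response, had TSS peaks of 334 (299 to 372) and 369 (332 to 409) stacked reads and fold enrichments of 77.1 and 81.8. Replicate 1 had 2 peaks over this short gene, and replicate 2 had a single one of 4246 bp that covered the gene from end to end. The values of IRF7 lay within those of IRF3, so this pair of neighbours in the order was not resolved either.

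The resulting order of mean TSS fold enrichment was STAT2 (155 ± 18.5) and IRF1 (144 ± 5.69), then IRF3 (80.7 ± 9.69) and IRF7 (79.4 ± 3.35), then IRF2 (62.4 ± 4.31) and IRF9 (44.5 ± 0.503), each with n = 2. The steps from IRF7 to IRF2 and from IRF2 to IRF9 were larger than the range between replicates, as was the step from IRF1 to IRF3. Over all protein-coding genes, those without a TSS peak counted as 0, the median was 38.9 in replicate 1 and 40.0 in replicate 2.

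**Figure D1:**
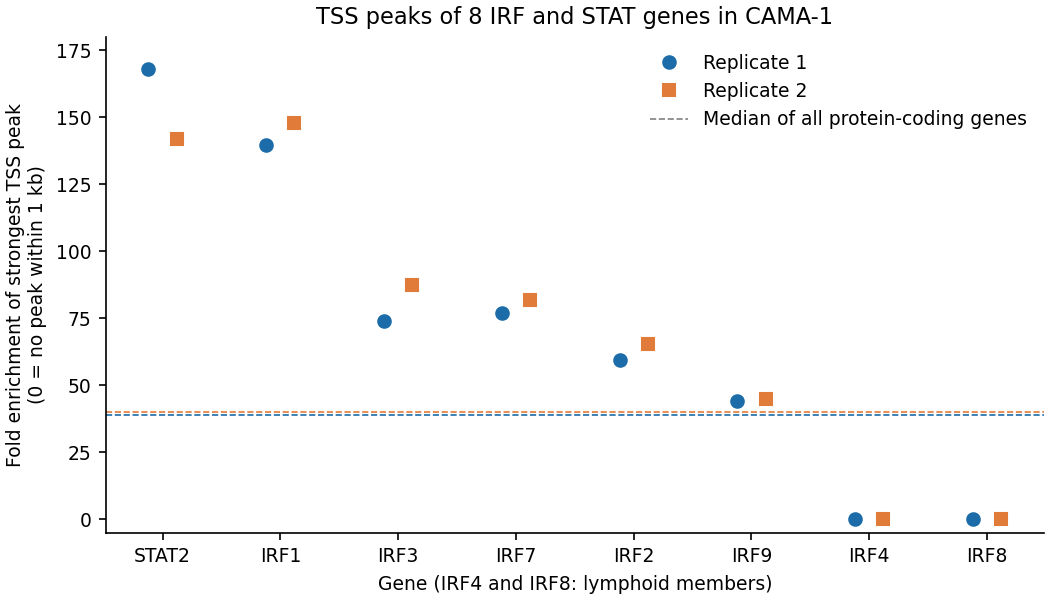
Fold enrichment of the strongest TSS peak (vertical axis, linear) for each of the 8 genes, with a circle for replicate 1 and a square for replicate 2, and dashed lines at the medians of all protein-coding genes (38.9 and 40.0). STAT2 and IRF1 lie at 140 or above, IRF9 lies just above the dashed lines, and IRF4 and IRF8 lie at 0, meaning no peak.

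IRF4 (ENSG00000137265.16, chr6:391739-411443, forward strand), which drives plasma cell fate and B cell activation, had 0 of 5 annotated TSSs under a peak. The nearest peak to its canonical TSS lay 11979 bp upstream in replicate 1, with a height of 80 and a fold enrichment of 18.6. In replicate 2 it was a weak intronic peak 11714 bp downstream, with a height of 16 and a fold enrichment of 3.76. The accessible stretch nearest to the IRF4 start in both replicates was the upstream one, which reached a fold enrichment of 22.1 in replicate 2.

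IRF8 (ENSG00000140968.12, chr16:85899116-85922606, forward strand), needed for dendritic cells and monocytes, had 0 of 17 annotated TSSs under a peak. Its nearest peak lay 1446 bp upstream of the canonical TSS in replicate 1 (height 44, fold enrichment 10.4) and 1478 bp upstream in replicate 2 (43 and 9.73). This peak fell just outside the 1 kb limit in both replicates, and with a limit of 3 kb IRF8 counted as having a TSS peak. At that limit 85.0% of all protein-coding genes did.

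As no called peak in these lists was lower than 11 stacked reads, a weaker opening at these starts would not have been detectable at this depth. Among protein-coding genes, 3726, or 18.6%, had no TSS peak in either replicate. IRF4 and IRF8 therefore shared the lowest rank with many other genes.

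Ranked among all protein-coding genes by TSS fold enrichment, STAT2 was at percentile 98.1 in replicate 1 and 95.8 in replicate 2, and IRF1 at 95.8 and 96.4. IRF3 (75.7 and 81.6), IRF7 (77.4 and 78.8) and IRF2 (66.3 and 69.1) followed, and IRF9 (54.4 and 53.9) was near the middle. Genes without a TSS peak were tied at 9.94 and 9.70. The median percentile of the broadly active genes was 76.5 and 80.2, a difference from the lymphoid pair of 66.6 in replicate 1 and 70.5 in replicate 2 (mean 68.5 ± 2.75, SD, n = 2). With 2 lymphoid genes this is a description of these genes and no test of the classes. The fold enrichment uses 1 background for the whole genome, so the number of copies of a locus enters it. Ranked only among genes on their own chromosome, the members stood at mean percentiles of 97.3 for STAT2, 90.3 for IRF1, 86.6 for IRF7, 82.5 for IRF3, 68.6 for IRF2 and 46.9 for IRF9.

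Many promoters are open wherever they are rich in CpG dinucleotides, and the members were set beside genes of like composition. A canonical promoter was called CpG-rich where the 500 bp either side of the TSS had a CpG observed/expected ratio of at least 0.6 and a GC content of at least 55%. Of 12004 genes with such a promoter, 92.9% had a TSS peak in both replicates, against 59.1% of the 8029 others. IRF4 (ratio 0.792, GC 69.2%, 93 CpGs) and IRF8 (0.972, 62.5%, 95 CpGs) both had CpG-rich promoters and yet no TSS peak. IRF8 had the highest CpG ratio of the 8 genes, at percentile 96.6 of protein-coding genes.

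IRF9 was the reverse case, with a ratio of 0.129 and 11 CpGs, at percentile 3.80, and a TSS peak in both replicates. Of the 1748 genes with a ratio from 0.1 to 0.2, 43.99% had a TSS peak. Among the other broadly active genes the ratio was 0.899 for IRF1, 0.812 for IRF2, 0.736 for IRF7, 0.698 for STAT2 and 0.675 for IRF3. STAT2 missed the CpG-rich class by its GC content of 53.5%.

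**Figure D2:**
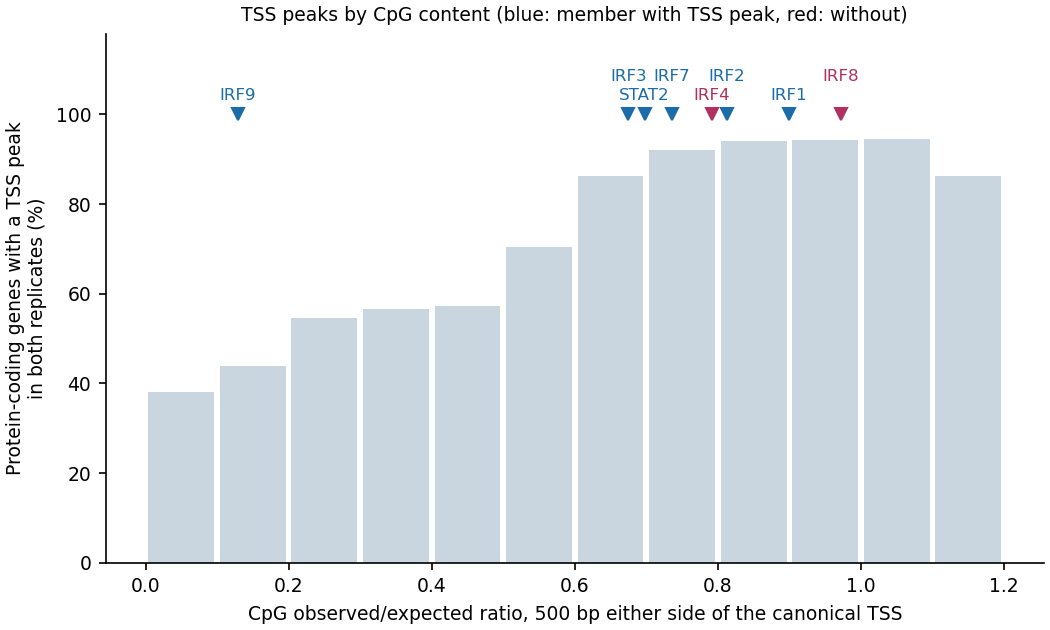
Share of protein-coding genes with a TSS peak called in replicate 1 and in replicate 2 (bars, vertical axis in percent) by the CpG observed/expected ratio of the canonical promoter (horizontal axis, bins of 0.1), with triangles above the bars at the ratio of each of the 8 genes. IRF4 (0.792) and IRF8 (0.972), in red without a TSS peak, stand over bins in which over 90% of genes have one, and IRF9 (0.129), in blue with one, stands over a bin at 43.99%.

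The gene bodies with 20 kb either side showed the same order of classes. In the 6 broadly active windows together, 17.0% of bases lay under peaks in replicate 1 and 18.0% in replicate 2. In the 2 lymphoid windows the shares were 4.30% and 3.95%, so that the ratio of broadly active to lymphoid was 3.96 and 4.57 (mean 4.26 ± 0.434, SD, n = 2). The median window of all protein-coding genes had 5.77% and 6.06% of bases under peaks. The ratio was 3.05 without IRF1, 2.88 after bases within 1 kb of protein-coding TSSs were left out and 2.32 with IRF7 counted as lymphoid. It was 8.80 for gene bodies alone, 6.30 for peaks with a −log10 q of at least 10 and 11.9 for the 50000 strongest peaks of each replicate. IRF1 and the bases near TSSs were not left out together. Peaks away from protein-coding TSSs numbered 39 and 37 at IRF1 and 22 and 20 at IRF2 in replicates 1 and 2. The windows of IRF7 (9 and 6), STAT2 (5 and 5), IRF3 (2 and 3) and IRF9 (1 and 2) held fewer. That of IRF4 held 8 and 10, and that of IRF8 held 12 and 7. These counts are not scaled to window length.

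No window of a broadly active gene had as small an open share as either lymphoid window. IRF1 had the most open window, with 31.2% of bases under peaks in replicate 1 and 33.6% in replicate 2, followed by IRF3 (23.2% and 25.5%), IRF7 (17.3% in both) and IRF9 (14.5% and 14.6%). STAT2 (9.54% and 10.4%) and IRF2 (7.09% and 7.24%) were lower, although STAT2 had one of the strongest TSS peaks of the 8 genes. IRF4 (4.16% and 4.59%) and IRF8 (4.44% and 3.34%) were lowest, and their values interleave. The windows of IRF2, IRF4 and IRF8 held no TSS of another protein-coding gene, and among these 3 the shares of IRF2 were the highest in both replicates.

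**Figure D3:**
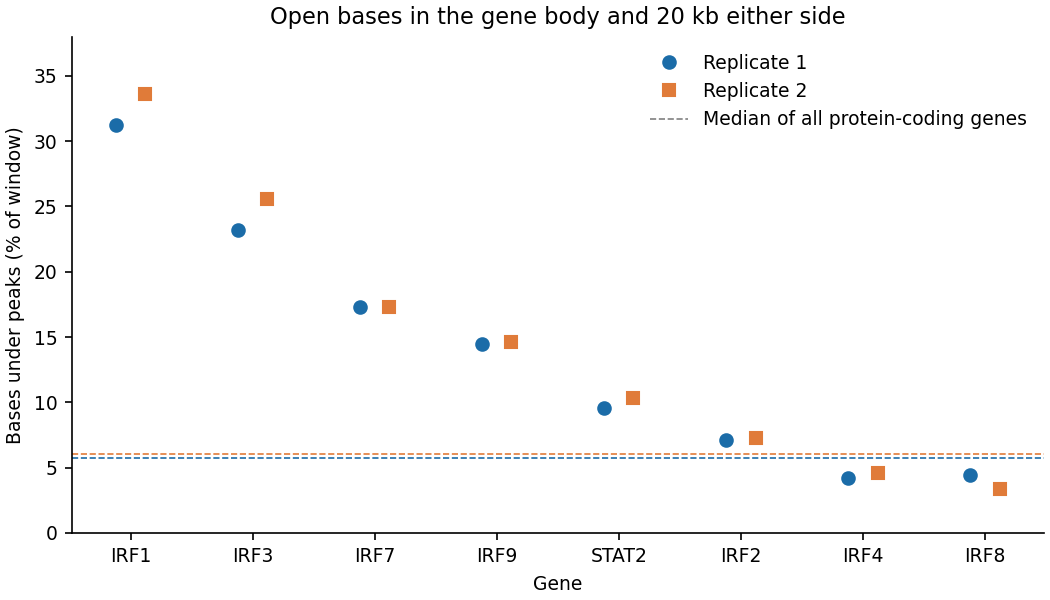
Percent of bases under peaks in each gene body with 20 kb either side (vertical axis), with a circle for replicate 1 and a square for replicate 2 and dashed lines at the medians of all protein-coding genes (5.77 and 6.06). The windows of IRF4 and IRF8 lie below the dashed lines in both replicates and the other 6 above them.

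The window of IRF1 held 39 of the 78 peaks away from protein-coding TSSs in the broadly active windows in replicate 1, and 37 of 73 in replicate 2. The GENCODE body of IRF1 is extended on both sides of the canonical transcript by long transcripts and overlaps IRF1-AS1 and ENSG00000283782, so not all of these peaks need belong to IRF1. The strongest lay in an intron 30.6 kb downstream of the canonical TSS, from 132459598 to 132460737 in replicate 1, with heights of 667 (617 to 720) and 689 (639 to 742) and fold enrichments of 154 and 153. It was thus as strong as the TSS peak of IRF1 itself. A further intronic peak 45.1 kb downstream reached 130 and 140, and a peak 6.20 kb upstream in replicate 1, at an alternative TSS of IRF1, reached 123 there and 132 in replicate 2. The middle 200 bases of the strongest region are shown on the strand of IRF1, since this was the highest peak outside TSSs in any of the 8 windows.
IRF1 intronic region, chr5:132460068-132460267, reverse strand: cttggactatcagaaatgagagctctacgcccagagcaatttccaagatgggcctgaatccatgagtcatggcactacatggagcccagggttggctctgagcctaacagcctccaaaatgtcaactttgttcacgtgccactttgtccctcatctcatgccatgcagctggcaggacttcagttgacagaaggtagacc

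The lymphoid genes, having no TSS peak, had their strongest peaks away from the TSS, as did the windows of IRF1 and IRF7. For IRF8 this was an intergenic peak 4.62 kb upstream of the canonical TSS, from 85894267 to 85894827 in replicate 1, with heights of 170 (145 to 198) and 184 (158 to 213) and fold enrichments of 39.3 and 40.9. For IRF4 it was a peak in an exon at the 3′ end, 17.1 kb downstream of the TSS, with heights of 147 (124 to 173) and 166 (142 to 193) and fold enrichments of 34.1 and 36.9. Both were above the median fold enrichment of all peaks and below the TSS peak of each broadly active gene. The middle 200 bases of the IRF8 region are shown, since it was the strongest open site near a lymphoid member.
IRF8 upstream region, chr16:85894448-85894647, forward strand: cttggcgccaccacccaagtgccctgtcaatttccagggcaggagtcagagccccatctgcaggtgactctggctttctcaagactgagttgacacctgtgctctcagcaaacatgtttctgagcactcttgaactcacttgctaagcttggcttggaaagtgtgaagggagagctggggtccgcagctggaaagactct

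Of the peaks in the 2 lymphoid windows, 15 of 20 in replicate 1 were found again in replicate 2, and 14 of 17 in replicate 2 were found again in replicate 1. In the broadly active windows the numbers were 117 of 130 and 112 of 124. The window of IRF8 held 12 peaks in replicate 1 and 7 in replicate 2, and that of IRF4 held 8 and 10. The peaks of these windows seen in 1 replicate only had heights of 16 to 21, close to the lowest height called.

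Other strong sites lay near IRF7 and STAT2. A peak 9.43 kb downstream of the IRF7 TSS, from 606164 to 606896 in replicate 1, lay outside the gene. Its fold enrichments were 87.7 and 95.1, more than the TSS peak of IRF7 in the same replicate. Of the middle 200 bases of its region, 182 lay in annotated exons, so it need not belong to IRF7. A peak 23.3 kb downstream of the STAT2 TSS had fold enrichments of 51.5 and 51.1. It lay within the GENCODE body of IL23A but upstream of the canonical TSS of that gene, at 56338884. The strongest intronic peak of IRF2, 11.5 kb downstream of its TSS, reached 26.9 and 27.2.

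**Figure D4:**
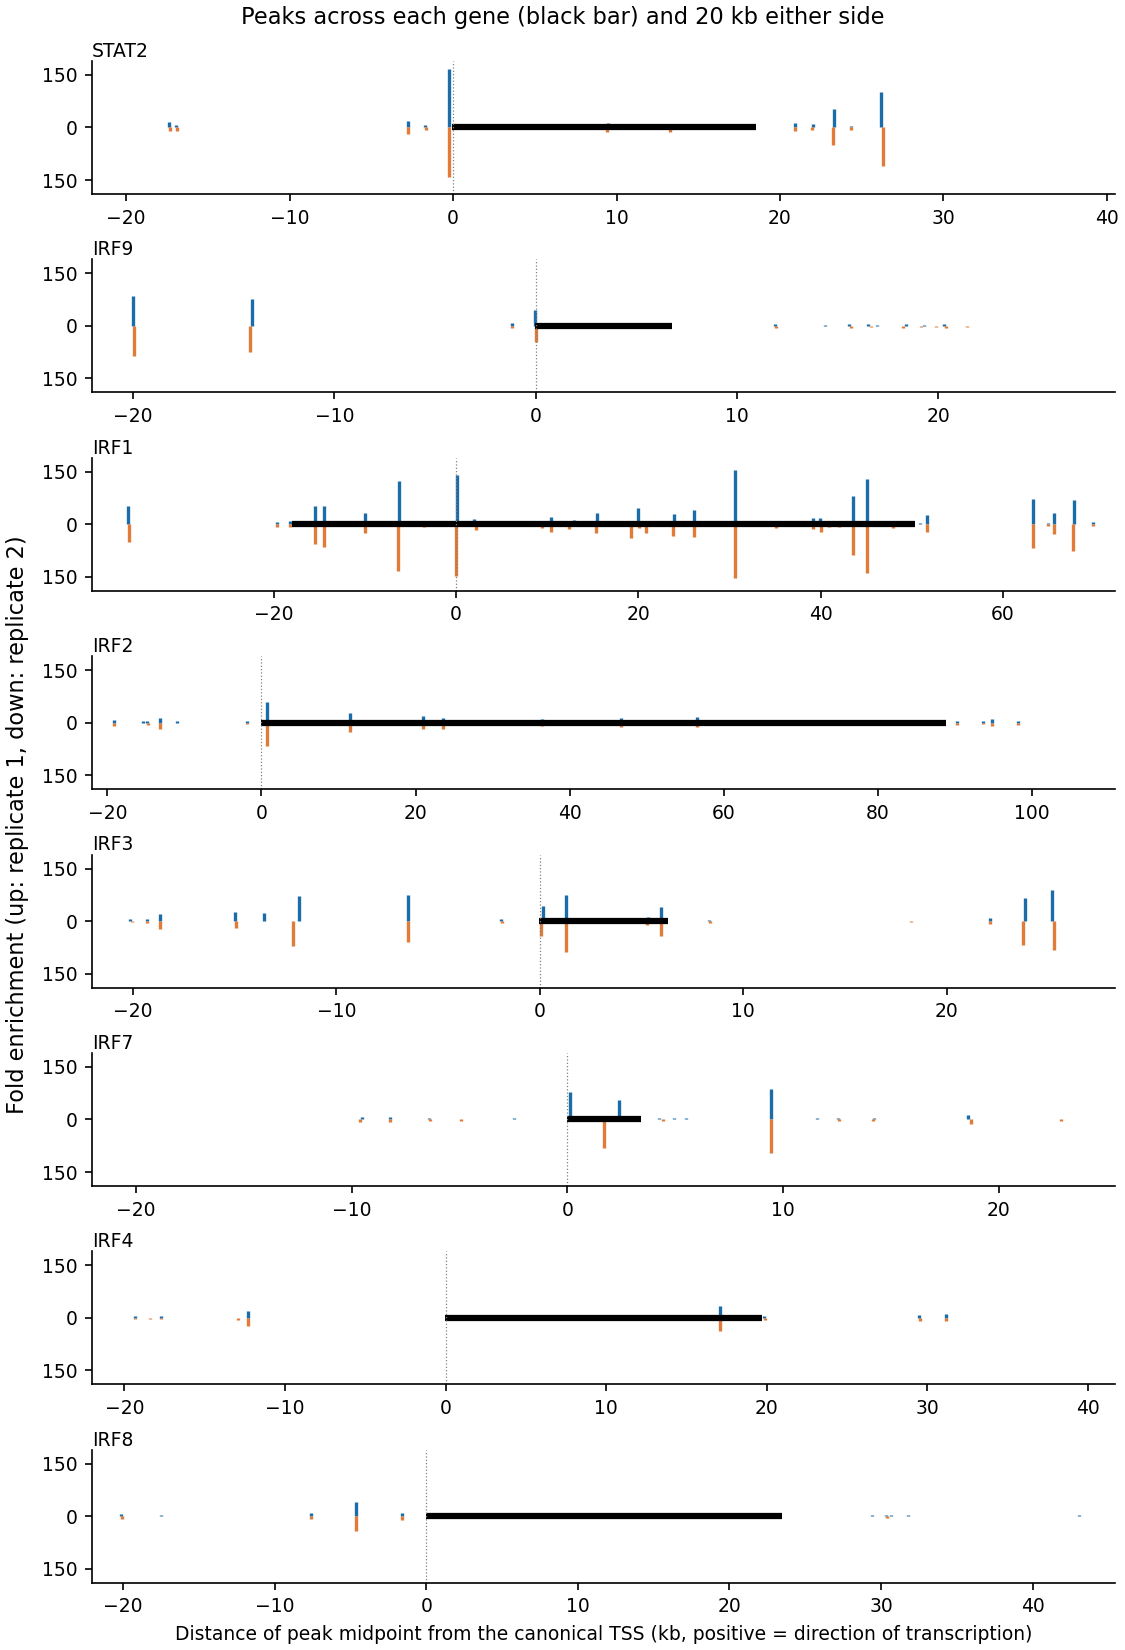
Fold enrichment of each peak (bars up for replicate 1 and down for replicate 2, linear vertical axis shared by all panels) against the distance of its midpoint from the canonical TSS in kb (horizontal axis, positive in the direction of transcription), 1 panel per gene, with the GENCODE gene body as a black bar. The TSS peaks of STAT2 and IRF1 and the intronic IRF1 peak at 30.6 kb are the highest bars, and at IRF4 and IRF8 no bar stands at 0.

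The windows of the broadly active genes except IRF2 hold TSSs of other genes, some with strong TSS peaks. The value given is that of the gene's strongest TSS peak, which overlaps the window unless stated otherwise. Near STAT2, IL23A, a subunit of the cytokine IL-23, and PAN2, a deadenylase, shared a TSS peak of 101 and 110. That peak covered the canonical TSS of PAN2. It was shared with IL23A only through an alternative TSS. The strongest peak within 1 kb of the canonical TSS of IL23A had 13.8 and 11.3. APOF, an apolipoprotein gene 2750 bp from the STAT2 TSS, had 17.9 and 17.7. Near IRF9, the proteasome activator gene PSME2, the ubiquitin ligase gene RNF31 and ENSG00000259529 shared a TSS peak of 76.2 and 73.6. EMC9 had 84.9 and 85.4, and REC8, a meiotic cohesin gene, 5.98 and 7.30. IPO4 had 45.3 and 58.6 in a peak outside the window. Its only TSS peak inside the window, in replicate 2, had 4.42.

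Near IRF3, the arginine methyltransferase gene PRMT1 had a TSS peak of 72.5 and 70.8, and RRAS and SCAF1 shared one of 87.7 and 82.7. Near IRF7, PHRF1 had 37.0 and 35.8 in a peak outside the window, and 4.83 and 4.86 inside it. The cadherin gene CDHR5 had 8.28 and 7.96, and SCT, which encodes secretin, had none. ENSG00000283782, whose canonical TSS lies in the window of IRF1, had 61.9 and 63.7 in a peak outside that window. Its strongest TSS peak inside the window had 18.9 and 21.2. IRF7 thus had a stronger TSS peak than PHRF1, CDHR5 and SCT had at any of their TSSs, in both replicates.

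Farther out, 11 of the 12 other protein-coding genes within 1 Mb of IRF8 had a TSS peak in both replicates, with COX4I1 the nearest at 99467 bp. Near IRF4 it was 3 of 5, with DUSP22 the nearest at 99265 bp. Around the broadly active genes the share within 1 Mb was from 79.7% at IRF9 to 96.4% at IRF1. Over all protein-coding genes the share was 79.3%. Most genes within 1 Mb of IRF8 thus had a TSS peak, as most protein-coding genes do, while IRF8 had none.

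The motifs searched on both strands were the ISRE core GAAANNGAAA, the ETS-IRF composite GGAANNGAAA, the GAS TTCNNNGAA and its stricter form TTCCNGGAA, which is a subset of the GAS. No site on 1 strand can match the ISRE core and the composite at the same position. Of 35116 RefSeq promoters of 300 bases, 3.57% held the ISRE core, 2.82% the composite, 7.66% the GAS and 1.15% the stricter form. Among the members' RefSeq windows, those of IRF1 and IRF9 held a GAS each, at 124 and 63 bp before the start, and no window held the ISRE core or the composite.

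In the bases of the TSS peaks shared by both replicates, IRF2 had 2 ISRE cores, 2 composites and 1 GAS within 3234 bp, and IRF7 had 1 ISRE core and 1 GAS, of the stricter form, within 1128 bp. IRF9 had 2 GAS matches, IRF1 had 1, and STAT2 had 1 composite. IRF3 had no match to these letters.

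Of the 124 open regions in the 8 windows, each taken as 300 bp around its midpoint, 5 (4.03%) held the ISRE core, 3 (2.42%) the composite and 13 (10.5%) the GAS. Over all 215195 regions called in both replicates the shares were 3.19%, 2.61% and 8.43%. Of the 14 lymphoid regions, 0 held the ISRE core, 0 the composite and 2 the GAS. These shares are close to the background, and a match is a description of the letters only.

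The composite near STAT2 lay in the strongest region of that window outside TSSs, upstream of the canonical TSS of IL23A. The 200 middle bases of that region are shown on the strand of STAT2. The match, in capitals, reads as GGAANNGAAA on the other strand.
STAT2 downstream region, chr12:56336749-56336948, reverse strand: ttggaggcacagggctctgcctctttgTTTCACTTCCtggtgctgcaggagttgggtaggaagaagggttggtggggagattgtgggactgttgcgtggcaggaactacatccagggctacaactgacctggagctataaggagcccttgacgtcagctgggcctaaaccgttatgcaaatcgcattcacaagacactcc

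The other genes of the pathway were counted by role. Over 7 lists with 101 genes, 74 genes, or 73.3%, had a TSS peak in both replicates, below the 79.3% of all protein-coding genes. The ligands were the list farthest below that share, with 4 of 21 genes (19.0%), and the shortfall rests on them. Taken without the ligands, the remaining genes lie above 79.3%. The interferon-stimulated genes were close to it at 77.5%, and the lymphoid partners were above it at 88.9%. Every gene in the lists of other IRF and STAT genes, IRF2 binding proteins, receptors and kinases, and sensors and adaptors had a TSS peak.

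Of the sensors and adaptors, which lie upstream of IRF3 and IRF7, 11 of 11 had a TSS peak, with a median percentile of 63.1 against 49.9 for all protein-coding genes. The strongest were those of MYD88, the adaptor of Toll-like receptors (152 and 148), and STING1, the adaptor of cytosolic DNA sensing (125 and 122). Of the receptors and kinases, 9 of 9 had one (median percentile 57.4), led by the kinases JAK2 (128 and 121) and TYK2 (89.5 and 86.9).

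Of the other IRF and STAT genes, 8 of 8 had a TSS peak (median percentile 57.7). STAT3, a mediator of cytokines such as IL-6, had the strongest, with 125 and 111. The weakest of this list was STAT5A, at 4.83 and 4.86. All 3 genes for IRF2 binding proteins, corepressors of IRF2, had one, with 146 and 135 for IRF2BP2 and 60.5 and 59.3 for IRF2BPL.

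Of 40 interferon-stimulated genes, the targets of ISGF3 and IRF1, 31 (77.5%) had a TSS peak in both replicates, 2 in 1 replicate (IFI44 and GBP1) and 7 in none. Their median percentile was 30.5, lower than that of the factors. IFI6 (106 in both replicates) and ISG20 (102 and 106) had the strongest, and CXCL10 and GBP4 were among those without. RSAD2 and CMPK2 shared a TSS peak and are not independent.

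Of 21 interferon ligand genes, 4 (19.0%) had a TSS peak in both replicates and 17 had none in either. The strongest were IFNL1 (36.1 and 46.4), a type III interferon, and IFNW1 (15.2 and 12.4), while IFNA1 and IFNA10 were among those without. The IFNA genes are near-identical copies in 1 cluster, where short reads may not be placed uniquely, so their calls are uncertain.

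The list of lymphoid partners of IRF4 and IRF8 also holds other lymphoid regulators beside the ETS and BATF genes. Of its 9 genes, 8 (88.9%) had a TSS peak in both replicates, against 79.3% of all protein-coding genes. Their median percentile was 43.4. BATF (66.0 and 69.0) and BATF3 (47.9 and 46.2), the AP-1 proteins that pair with IRF4 and IRF8, had the strongest. SPI1, which encodes the ETS partner PU.1, had none in either replicate.

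**Figure D5:**
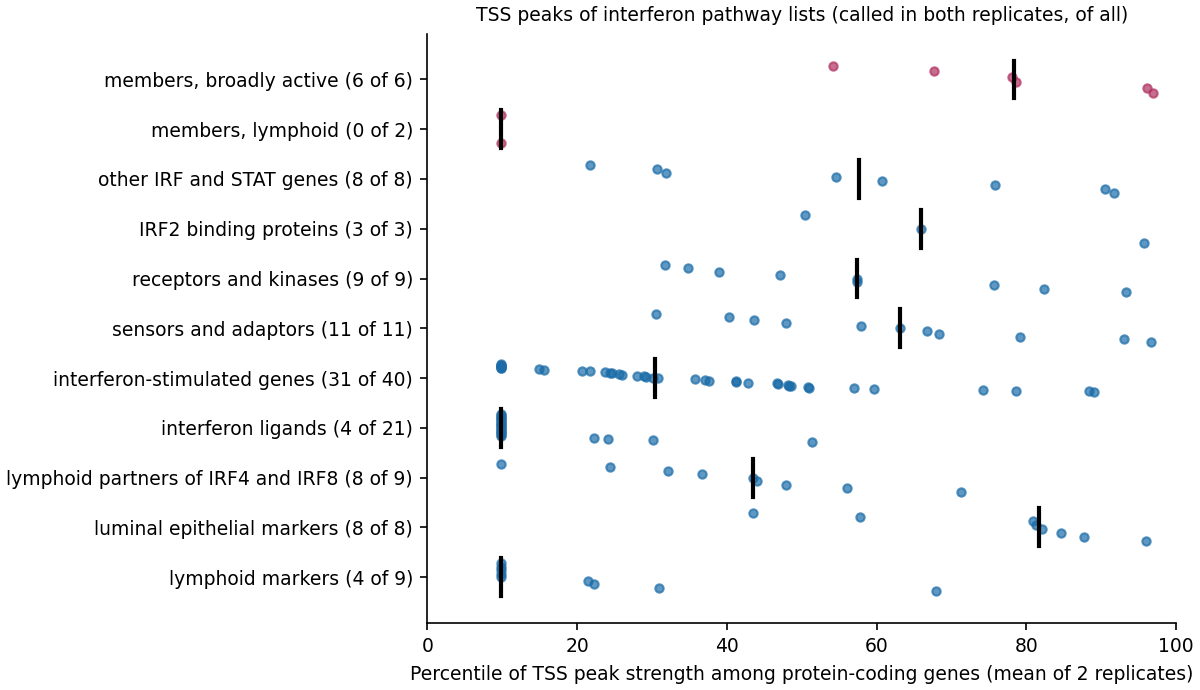
Percentile of the strongest TSS peak among protein-coding genes (horizontal axis, mean of both replicates) for each gene (points) of 11 lists (rows, with the number called in both replicates of all), with black bars at the list medians. Genes without a TSS peak are stacked at the left end, where most interferon ligands, 5 lymphoid markers, SPI1, IRF4 and IRF8 lie.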

How the data were processed

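ATAC-seq peak lists of CAMA-1 (2 biological replicates, labelled as such) were used. According to the submitters' processing notes, reads were trimmed with Trim Galore 0.6.5 and aligned with Bowtie2 2.3.5.1, and peaks were called with MACS2 2.2.6 on hg38. MACS2 settings, duplicates and excluded regions are not given in the sources used here. The authors deposited, per peak and replicate, the fold enrichment of each peak (a ratio to background), its −log10 p-value, its −log10 q-value and a score, but neither reads per peak nor summits.

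Heights were recovered from the step between deposited fold enrichments (0.230 and 0.221), which gave backgrounds of 3.35 and 3.52 stacked reads. Intervals cover counting error only. Overlap meant at least 1 bp. A gene's percentile was the midrank of its strongest TSS peak. Genes came from GENCODE release 44, promoter sequences from RefSeq. Named genes were the members, protein-coding genes with a TSS in a member's window, and, of each pathway list, the 2 strongest and the first 2 in alphabetical order without a TSS peak. IRF1-AS1, STAT5A, IFI44, GBP1, RSAD2, CMPK2, COX4I1 and DUSP22 were named after their values were seen. Members and lists were chosen with earlier results of these data known. With 1 condition no test was run. The functions were tested on simulated data, and Python 3.11.15 was used. Some genes that this rule names are not reported here. Other assays and models were not analysed here.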

Additional observations from a re-analysis of the deposited data

How the results depend on the processing

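The members with a TSS peak in both replicates numbered 6 under every alternative run except a TSS distance of 3 kb, where IRF8 made it 7. No alternative reversed the direction of the percentile difference or of the ratio of open bases. For the percentile difference this was largely fixed beforehand. IRF4 and IRF8 had no TSS peak, and so the lowest rank, in every setting except IRF8 at 3 kb. The pathway share was not rerun without the ligands. The difference of the median TSS percentile, broadly active minus lymphoid (68.5), was 62.0 at 3 kb, 63.7 with a single TSS per gene (the most 5′), 59.6 with the 50000 strongest peaks and 76.3 within chromosomes. With the most 5′ TSS the mean fold enrichment of IRF1 was 8.13 in place of 144. The ratio of open bases (4.26) was 6.30 at a −log10 q of at least 10, 11.9 with the 50000 strongest peaks, 2.32 with IRF7 counted as lymphoid, 8.80 for gene bodies alone, 2.88 without bases near TSSs and 3.05 without IRF1. The share of pathway genes with a TSS peak (73.3%), against 79.3% of all protein-coding genes, was 65.3% at 100 bp (all genes 73.2%) and with the most 5′ TSS (71.7%), 76.2% at 3 kb (85.0%), 69.3% at a −log10 q of at least 10 (76.9%) and with the canonical TSS (73.5%), and 46.5% with the 50000 strongest peaks (61.4%). With 1 replicate left out, the ranges were 6 to 6 members, 66.6 to 70.5, 3.96 to 4.57, and 73.3% to 75.2%. The canonical TSS, the canonical span and the omission of IRF1 were chosen after seeing the data. The GAS was in the TSS peaks of 4 members and its stricter form in 1, with no share over the TSS peaks of other genes beside these counts. No paired analysis was possible because the replicates form a single condition. Depth limits the calls to peaks of at least 11 stacked reads.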
